A study of Mus musculus with 16 samples.

Results

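Astrocytes supply neurons with lactate and lipids, clear glutamate from the synapse and convert it to glutamine, and hold water, potassium and metal ions in balance. The 10 genes described here are commonly used to mark these cells and serve those tasks. Apoe and Clu encode secreted apolipoproteins, Slc1a2 and Slc1a3 the glutamate transporters GLT-1 and GLAST, and Glul glutamine synthetase. Aldoc encodes the brain form of the glycolytic enzyme aldolase, Gfap an intermediate filament that rises in reactive astrocytes, Aqp4 the water channel of the end feet, Mt3 a brain metallothionein and S100b a calcium-binding protein. The genes were chosen by name, with earlier results of these data known, and the reads of all isoforms that TALON assigned to them were taken. In mm10, with the GENCODE M21 annotation, Glul lies at chr1:153899944-153909723, Slc1a2 at chr2:102658659-102790784, Apoe at chr7:19696109-19699188, Mt3 at chr8:94152607-94154146 and S100b at chr10:76253853-76261159. Aldoc lies at chr11:78322968-78327781, Gfap at chr11:102887336-102900912, Clu at chr14:65968483-65981547 and Slc1a3 at chr15:8634124-8710764. All 10 were found among the 21627 genes with reads, with 856 of the 815498 isoforms listed, of which 699 had at least 1 read.

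Long-read RNA sequencing (PacBio Iso-seq), in which a cDNA molecule is read from end to end, was carried out on 2 brain regions, cortex and striatum, from male mice aged 3 months. R6/2 mice carry a transgene of exon 1 of the human huntingtin gene with an expanded CAG repeat, driven by the human huntingtin promoter, and are a rapid model of Huntington's disease (HD). The strain was B6CBA-Tg(HDexon1)62Gpb/3J, and non-transgenic (NT) mice were the controls. There were 4 samples for each genotype and region, named cortex NT, cortex R6/2, striatum NT and striatum R6/2, and 16 in all. The study asked whether RNA splicing is altered in HD, and here the levels and isoforms of the astrocyte genes were compared between genotypes and between regions.

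Cortical samples held 252885 to 808814 reads and striatal samples 317050 to 1496196. Levels are given in CPM, the reads of a gene per 1000000 reads of its sample after TMM scaling. A gene was called changed at an adjusted p under 0.05 in the edgeR quasi-likelihood test, with Benjamini-Hochberg adjustment over all genes tested, and SE is the standard error of a log2 fold change. For striatum NT 1, NT 2, R6/2 2 and R6/2 3 there were 2 deposited count sets each, which were taken as 2 sequencing runs and summed. The striatal fit has a term for the number of runs. The mean isoform length per read was 2125 to 2197 nt in those 4 samples, 1589 to 1840.0 nt in the other 4 striatal samples and 1821.5 to 2068 nt in the cortex. Striatum NT 4, with the shortest reads, stood apart and held only 4 reads of Gfap, 6 of Glul, 8 of Slc1a2 and 8 of Aqp4. Striatum NT 3 held 9556 CPM of Ttr, a choroid plexus gene, and a summed level of 8 ependymal and choroid plexus markers of 10301 CPM, against 311 to 764 CPM in the other striatal samples. In the cortex this sum was 1392 CPM in NT 4, 1492 CPM in R6/2 2 and 1899 CPM in R6/2 3, against 147 to 227 CPM in the other 5 samples, and Ttr was at 956, 1239 and 1601 CPM in those 3 against 4.49 to 42.3 CPM. Values without each of these samples are given where a call was lost. Region labels matched their markers, since Ppp1r1b, which encodes DARPP-32 of striatal projection neurons, was at 597 to 5801 CPM in the striatum and at 25.5 to 234 CPM in the cortex. The transgene could not be checked, because its human sequence is not part of the mm10 genome to which the reads were mapped. The study describes the samples of a group as a subset of its biological replicates, so p-values were taken to measure the spread between mice.

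In the cortex of R6/2 mice, 3 of the 10 astrocyte genes fell and none rose. Aldoc, Apoe and Glul were lower than in NT cortex by 1.28, 0.89 and 0.93 on the log2 scale. The same test called 172 of the 6121 genes tested lower (2.81%) and 28 higher (0.457%). DESeq2 likewise called 3 members, and 6 members had an unadjusted p under 0.05. The log2 fold change was negative for 8 of the 10 genes, with a median of -0.54, against a median of 0.01 and 48.2% negative over all genes tested. In tissue RNA, fewer astrocytes and less RNA per astrocyte cannot be told apart.

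**Figure D1:**
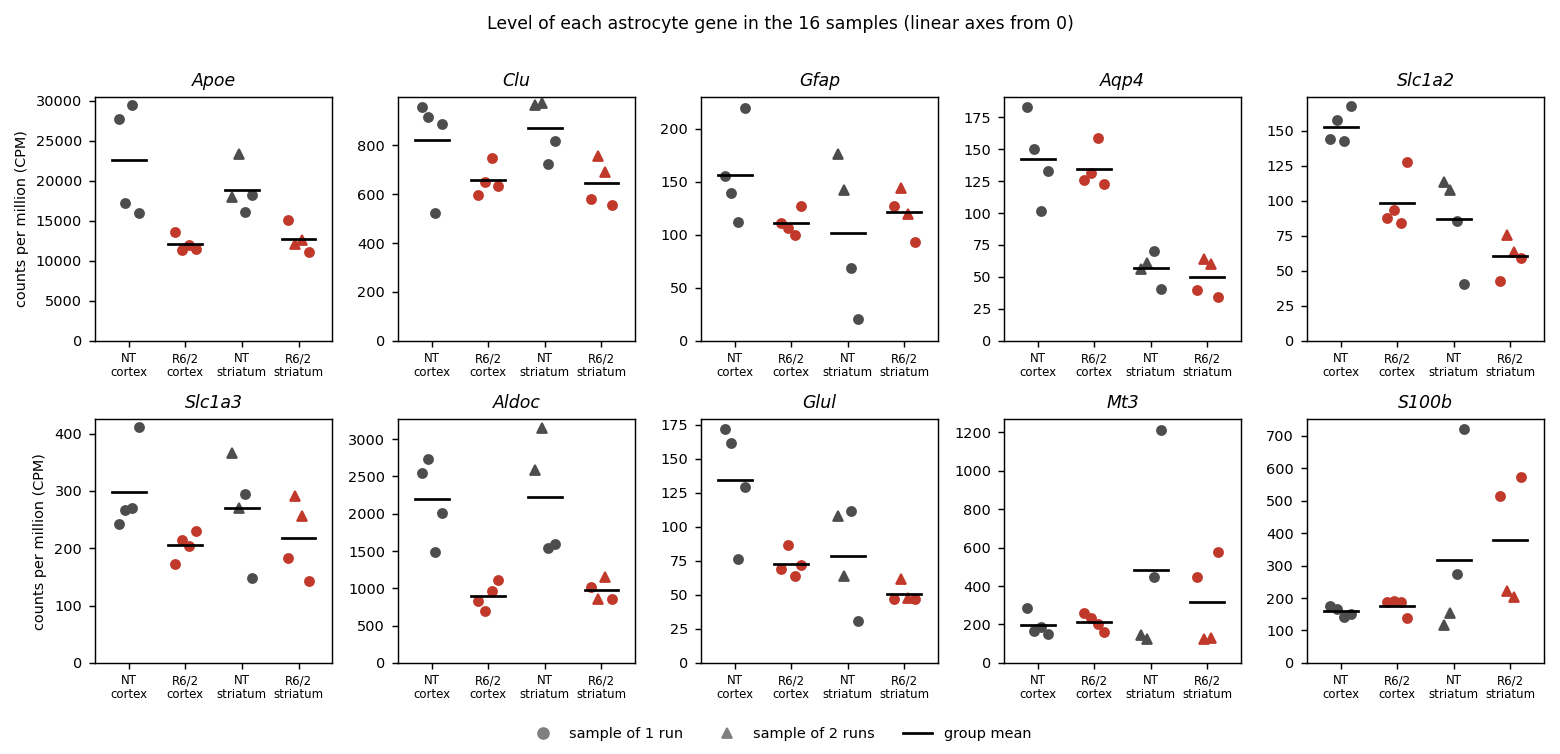
Level of each of the 10 astrocyte genes (CPM, linear axes from 0) in the 16 samples, by region and genotype. Circles are samples of 1 run, triangles samples of 2 runs, and bars group means. Aldoc lies lower in all R6/2 samples of both regions than in the NT samples, and Mt3 and S100b are spread most within the striatal groups.

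Aldoc showed the largest difference of the members in both regions. It was at 2547, 2735, 1485 and 2006 CPM in the 4 samples of NT cortex and at 835, 692, 960.2 and 1106 CPM in R6/2 cortex. Every R6/2 sample lay below every NT sample. The log2 fold change was -1.28 (SE 0.22, adjusted p = 0.0018), a level 2.43-fold lower, and the call held in all 16 alternative settings of the cortex. In the striatum, NT samples held 2589, 3144, 1543 and 1595 CPM and R6/2 samples 1021, 859, 1153 and 858 CPM, again without overlap. The log2 fold change was -1.14 (SE 0.21, adjusted p = 0.0069), and it was lost when the number of runs was left out of the fit (log2 fold change -1.18, adjusted p = 0.13). Within the samples of 1 run the ratio of striatal means was -0.74 on the log2 scale and within those of 2 runs -1.51. Aldoc was the only member called in R6/2 striatum, where the test called 294 of 7658 genes lower (3.84%) and 38 higher (0.496%). DESeq2 called 2 members there, and 5 had an unadjusted p under 0.05. The median log2 fold change of the members was -0.43, with 8 of 10 negative, against a median of -0.0022 and 50.2% negative over all genes tested.

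Aldoc has annotated starts at chr11:78322968 and chr11:78324200 (mm10, plus strand), and the isoforms annotated from both were assigned reads in every sample. Where the reads themselves began is not given by counts per isoform. Exon 1 of Aldoc-002 and exon 2 of Aldoc-001 both end at chr11:78324513, and the later junctions are the same. A read of Aldoc-001 that begins within its exon 2 therefore cannot be told from Aldoc-002 by its junctions. The isoform Aldoc-001 (ENSMUST00000017534, 9 exons, 2786 nt) begins at the first of them and held 85.9% of the complete reads of the gene, those of known isoforms and of the NIC and NNC classes. Aldoc-002 (ENSMUST00000102478, 8 exons, 1700 nt) begins within the first intron of Aldoc-001 and held 12.04%. Both contain the same coding sequence of 1089 nt, so they differ outside it. Their annotated 3′ ends differ as well, at chr11:78327781 for Aldoc-001 and chr11:78326760 for Aldoc-002. The windows before both starts are shown because the 2 isoforms are annotated to begin there and are compared in the next paragraphs. Each runs from before the start to 30 bases after it, 5′ to 3′, from RefSeq promoter sequences of GRCm38.p6, at chr11:78322823-78322997 and chr11:78323948-78324227.

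Aldoc-001 start: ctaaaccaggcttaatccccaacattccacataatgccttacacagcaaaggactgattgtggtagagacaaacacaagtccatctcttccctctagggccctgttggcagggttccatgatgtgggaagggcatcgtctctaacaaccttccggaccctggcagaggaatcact
Aldoc-002 start: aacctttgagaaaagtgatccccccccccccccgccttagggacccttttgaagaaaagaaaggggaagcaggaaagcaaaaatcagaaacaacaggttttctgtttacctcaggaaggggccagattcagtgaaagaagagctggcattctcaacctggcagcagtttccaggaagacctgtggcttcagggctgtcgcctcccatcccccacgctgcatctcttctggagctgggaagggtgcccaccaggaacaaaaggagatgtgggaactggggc

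Capitals would mark 3 promoter elements searched on both strands, which do not overlap one another. These were the letters TATAAA for the TATA element, the letters CCAAT for the element that binds NF-Y, and the letters GGGCGG for the element that binds Sp1. Neither window holds any of them. For Aldoc-001 the RefSeq start, at chr11:78323073, lies 105 bases after the annotated one. The window ends before that RefSeq start, and the bases just before the RefSeq start were not searched. Of the 32851 RefSeq promoters, 8.22%, 24.1% and 20.2% hold these letters in the first 175 bases of their window. In the first 280 bases 13.1%, 36.1% and 34.7% hold them. These windows begin 250 bases before the RefSeq start, so their first 175 bases end before that start. The Aldoc-001 window is the same part of its own RefSeq window but lies around the annotated start, so these shares are no background for sequence around a start.

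The share of Aldoc-002 was higher in each sample of R6/2 cortex than in any of NT cortex, but the difference did not pass the test. It was 9.76%, 6.92%, 7.53% and 8.95% of complete reads in NT cortex and 12.7%, 17.7%, 13.7% and 11.9% in R6/2 cortex. The means were 8.29% ± 1.30 and 14.0% ± 2.54 (SD, n = 4). In edgeR's test of isoform usage, the isoform-level p was 0.012 before and 0.62 after adjustment over all isoforms. In the striatum the share was 12.9% ± 2.12 in NT and 16.5% ± 1.36 in R6/2 samples (SD, n = 4), between 10.2% and 14.9% and between 15.5% and 18.5%. These ranges did not overlap either, with an isoform-level edgeR p of 0.16 before adjustment. The 95% Wilson interval of striatum NT 4, the widest of the striatal samples, ran from 11.3% to 19.4%, and such intervals cover counting error only. Whether shortened reads of Aldoc-001 have a part in these shares was not tested. Both isoforms of Aldoc had lower mean levels in R6/2 than in NT cortex. Aldoc-001 went from 1895 ± 496 to 732 ± 172 CPM and Aldoc-002 from 176 ± 53.5 to 119 ± 12.9 CPM in the cortex (mean ± SD, n = 4).

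**Figure D2:**
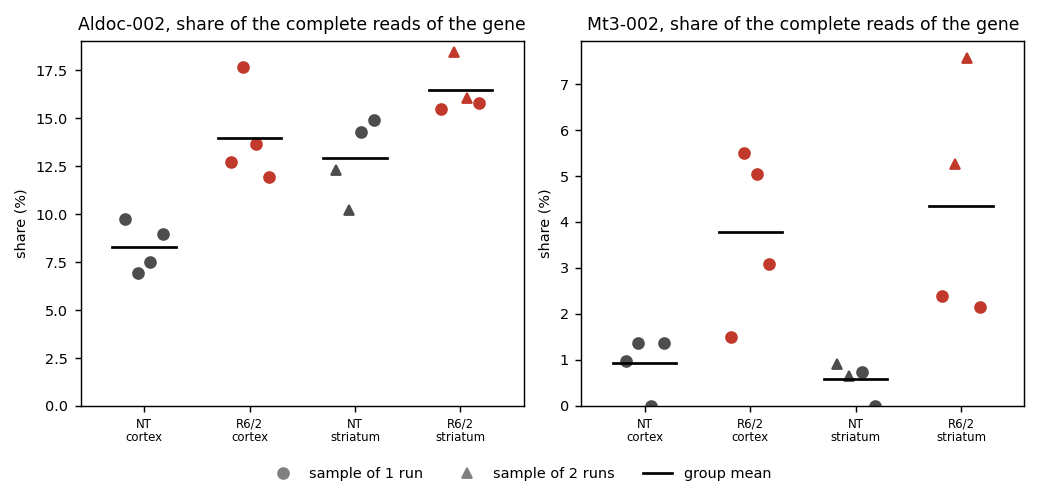
Share of Aldoc-002 and of Mt3-002 among the complete reads of their gene (percent, axes from 0) in each of the 16 samples, by region and genotype. Circles are samples of 1 run, triangles samples of 2 runs, and bars group means. In both regions the R6/2 samples lie above the NT samples for both isoforms.

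Apoe, which carries cholesterol and other lipids from astrocytes to neurons, gave 1.14% to 2.86% of the gene reads of a cortical sample and 1.05% to 2.14% of those of a striatal sample. In NT cortex it was at 27741, 17249.7, 29518 and 15950 CPM, and in R6/2 cortex at 13578, 11352, 11933 and 11421 CPM. The R6/2 samples lay below all NT samples and varied less among themselves. The log2 fold change was -0.89 (SE 0.19, adjusted p = 0.0096), which leaving out cortex R6/2 3 moved to an adjusted p of 0.052. In the striatum, Apoe was at 17911, 23380, 16051 and 18235 CPM in NT and at 15103, 12127, 12568 and 11063 CPM in R6/2 samples. These groups did not overlap either, but the log2 fold change of -0.58 (SE 0.18) had an adjusted p of 0.086. DESeq2 gave -0.56 with an adjusted p of 0.046. Nearly all complete reads of Apoe (97.6%) were of the isoform Apoe-001 (ENSMUST00000174064, 4 exons, 1408 nt), between 96.0% and 98.0% of them in every sample. Microglia also express Apoe, and the part they have in its difference was not tested. None of the microglia markers tested, 6 in the cortex and 10 in the striatum, was called. The summed level of the marker list was 530 to 711 CPM in NT cortex and 437 to 731 CPM in R6/2 cortex.

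Clu encodes clusterin, a secreted chaperone and lipid carrier. It was at 959, 917, 524 and 889.8 CPM in NT cortex and at 598, 649, 748 and 632 CPM in R6/2 cortex, with a log2 fold change of -0.32 (SE 0.21, adjusted p = 0.46). In the striatum its level was 870.2 ± 121 CPM in NT and 645 ± 94.4 CPM in R6/2 samples (mean ± SD, n = 4), with a log2 fold change of -0.44 (SE 0.15, adjusted p = 0.13). Neither difference passed, and the groups overlapped in both regions.

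The glutamate transporters and glutamine synthetase were examined next. Glul, which turns glutamate and ammonia into glutamine, was at 172, 162, 76.3 and 129 CPM in NT cortex and at 68.8, 87, 63.5 and 72.1 CPM in R6/2 cortex. Only NT 3 of the NT samples lay within the R6/2 range. The log2 fold change was -0.93 (SE 0.22, adjusted p = 0.023). With 15 to 72 reads per cortical sample, this call was lost without cortex NT 2, NT 4, R6/2 1, R6/2 3 or R6/2 4, at adjusted p values of 0.097, 0.055, 0.072, 0.099 and 0.066. It was also lost when ISM reads were left out (0.095) and in 1 fit of all 16 samples (0.055). In the striatum Glul was at 78.5 ± 38.6 CPM in NT and 50.8 ± 7.23 CPM in R6/2 samples (log2 fold change -0.72, SE 0.28, adjusted p = 0.20). Without striatum NT 4, with its 6 reads, the adjusted p was 0.047.

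Slc1a2, whose product GLT-1 takes up most synaptic glutamate in the forebrain, was at 144, 157, 142 and 167 CPM in NT cortex. In R6/2 cortex it was at 87.9, 93.4, 83.7 and 127 CPM. The groups did not overlap, yet the log2 fold change of -0.65 (SE 0.19) had an adjusted p of 0.063. Striatal NT samples were at 113, 108, 85.4 and 40.6 CPM and R6/2 samples at 42.5, 75.7, 63.6 and 59.0 CPM, with a log2 fold change of -0.61 (SE 0.21, adjusted p = 0.13). NT 4 was the lowest of these 8 samples, and without it the adjusted p was 0.033. Slc1a3, which encodes the related transporter GLAST, was at 298 ± 76.9 CPM in NT and 205 ± 24.8 CPM in R6/2 cortex (log2 fold change -0.54, SE 0.20, adjusted p = 0.16). All R6/2 samples, from 172 to 231 CPM, lay below the NT samples, from 243 to 412 CPM. In the striatum its difference was -0.35 (SE 0.20, adjusted p = 0.41).

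Slc1a2 was also the member whose reads were least often complete. Reads of the genomic class, which match the gene but no spliced model, made up 64.9% of its 2545 reads and between 53.1% and 92.7% in single samples. In the other 9 members they made up 0.111% to 9.86%. Of the 1651 genomic reads of Slc1a2, 1646 held a single exon, with a mean length of 1730 nt. The isoform Slc1a2-001 (ENSMUST00000080210, 11 exons, 11595 nt) held 71.7% of the 621 complete reads and Slc1a2-004 (ENSMUST00000111213, 10 exons, 2093 nt), whose last exon extends exon 10 of Slc1a2-001, 22.1%. Their shares overlapped between genotypes in both regions. When the genomic reads were counted too, Slc1a2 was called lower in R6/2 mice in both the cortex (-0.68, adjusted p = 0.035) and the striatum (-0.86, adjusted p = 0.0095).

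**Figure D3:**
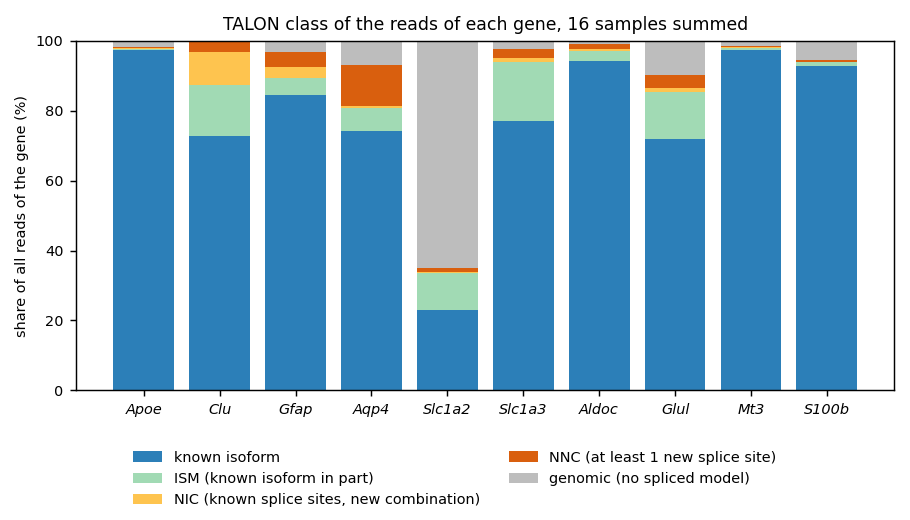
Share of the reads of each gene by TALON class (percent, the 16 samples summed). Known isoforms make up most reads of 9 genes, whereas 64.9% of the reads of Slc1a2 are genomic, and incomplete splice matches (ISM) are most frequent in Slc1a3 and Clu.

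Incomplete splice matches, reads that cover only some junctions of a known isoform, made up 16.9% of the reads of Slc1a3, 14.8% of Clu and 13.5% of Glul, but 0.292% of Apoe and 0.779% of Mt3. The known isoforms Clu-001 (85.3% of complete reads), Gfap-001 (86.8%), Slc1a3-001 (91.4%), Glul-001 (93.7%) and S100b-001 (99.4%) each dominated their gene. Aqp4 was the member with the largest NNC share (11.6% of its reads), mostly 1 isoform of 5 exons and 4123 nt that is not annotated and held 11.4% of complete reads. That Aqp4 isoform held 12.6% ± 3.82 in NT and 8.19% ± 1.01 in R6/2 cortex (SD, n = 4). It was not called for usage, with an isoform-level edgeR p of 0.19 before adjustment. An NNC isoform of Glul held 11.7% ± 19.0 of complete reads in striatum NT (SD, n = 4), with 2 of the 5 complete reads of NT 4 and 8 reads in all 16 samples.

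The 4 remaining genes were not called by genotype in either region. Gfap was at 157 ± 45.9 CPM in NT and 111 ± 11.9 CPM in R6/2 cortex (log2 fold change -0.53, SE 0.20, adjusted p = 0.18). In the striatum it was at 176, 143, 69.0 and 20.3 CPM in NT and at 128, 144, 119.8 and 93.4 CPM in R6/2 samples (log2 fold change 0.23, SE 0.29, adjusted p = 0.76), so NT samples lay on both sides of the R6/2 samples. Aqp4 was at 142 ± 34.1 and 135 ± 16.5 CPM in NT and R6/2 cortex (-0.08, SE 0.19, 95% interval -0.46 to 0.30). S100b was at 159 ± 14.6 and 176 ± 25.9 CPM there (0.16, SE 0.18, interval -0.19 to 0.51) and Mt3 at 198 ± 61.96 and 212 ± 42.6 CPM (0.13, SE 0.22, interval -0.30 to 0.55). In the striatum, Mt3 was at 146, 125, 448 and 1214 CPM in NT and at 448, 123, 127 and 575 CPM in R6/2 samples (-0.42, SE 0.26, adjusted p = 0.47), and Aqp4 gave -0.24 (SE 0.22, adjusted p = 0.66). Striatal S100b gave 0.39 (SE 0.25, adjusted p = 0.47), and 0.76 with an adjusted p of 0.019 without striatum NT 4.

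**Figure D4:**
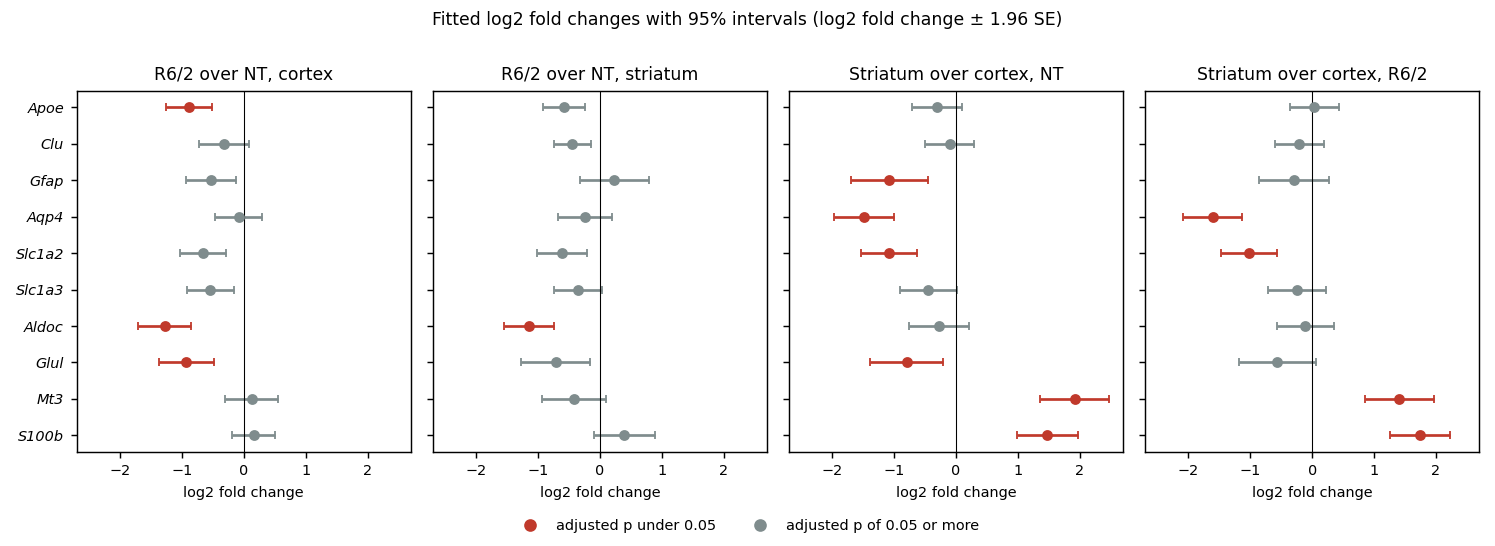
Fitted log2 fold changes of the 10 astrocyte genes in 4 comparisons, with 95% intervals and 4 samples per group. Red points passed the adjusted p of 0.05. The members lie mostly below 0 for R6/2 against NT, and Mt3 and S100b lie above 0 for striatum against cortex, where the striatum is read at 1 run.

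Although its level did not pass the test, Mt3 was the member called for isoform usage. The isoform Mt3-002 (ENSMUST00000211915, 3 exons, 440 nt) took a larger share of Mt3 in R6/2 striatum. The last exon lies at chr8:94153697-94153985 in it and at chr8:94153901-94154146 in Mt3-001 (ENSMUST00000034211, 3 exons, 536 nt), so the exons overlap in part. The annotated coding sequences of both are shown because their ends are what differs. The first 97 bases, from exons 1 and 2, are in lower case, and those of the last exon are in capitals.

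Mt3-001: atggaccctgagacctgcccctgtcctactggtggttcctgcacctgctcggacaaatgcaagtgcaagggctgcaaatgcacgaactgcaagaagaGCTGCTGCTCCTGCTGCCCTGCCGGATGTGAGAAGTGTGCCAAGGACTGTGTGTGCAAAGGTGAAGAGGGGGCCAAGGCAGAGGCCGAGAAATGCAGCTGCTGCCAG
Mt3-002: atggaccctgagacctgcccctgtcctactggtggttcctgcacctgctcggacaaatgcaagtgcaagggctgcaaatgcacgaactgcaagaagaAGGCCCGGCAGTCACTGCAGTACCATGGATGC

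Mt3-001 encodes 68 amino acids with 20 cysteine codons, the residues with which metallothioneins bind metal ions. Mt3-002 encodes 43 with 10 cysteine codons, of which 9 lie in the shared part. Both sequences are those of the GENCODE M21 transcripts.

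Reads of Mt3-002 were few. Striatal NT samples held 1 of 110, 1 of 152, 2 of 269 and 0 of 237 complete reads of Mt3, the last of which allows a share of up to 1.27%. R6/2 striatum held 7 of 293, 6 of 114, 9 of 119 and 5 of 232, so every R6/2 sample lay above every NT sample. The mean share was 0.578% ± 0.399 in NT and 4.34% ± 2.57 in R6/2 striatum (SD, n = 4). The 95% Wilson interval ran from 4.03% to 13.8% in R6/2 3, the highest sample, and from 0.924% to 4.94% in R6/2 4, the lowest. The usage of Mt3-002 rose by 1.97 on the log2 scale (isoform-level adjusted p = 0.033, gene-level Simes adjusted p = 0.040), where the gene-level test called 19 of 4437 genes (0.428%) and the isoform-level test 38 of 13619 isoforms (0.279%). The share was higher by 1.90 percentage points within the samples of 1 run and by 5.63 within those of 2 runs. The gene-level call held without striatum NT 3 and was lost without any other single sample, and the isoform-level adjusted p then lay between 0.0565 and 0.276. It was also lost without the term for runs, with the first run only and with ISM isoforms added.

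In the cortex, Mt3-002 made up 1 of 102, 1 of 73, 0 of 37 and 1 of 73 complete reads in NT and 2 of 134, 6 of 109, 7 of 139 and 2 of 65 in R6/2 samples. The mean shares were 0.930% ± 0.647 and 3.78% ± 1.85 (SD, n = 4), without overlap. The difference did not pass the isoform-level edgeR test, with a p of 0.031 before and 0.88 after adjustment. Of the 8 members with at least 2 isoforms to test, none was called for usage in the cortex, where the edgeR gene-level test called 11 of 3058 genes (0.360%) and no member had an unadjusted Simes p under 0.05. In the comparison of striatum with cortex, none of the 8 was called in NT mice, where 26 of 5641 genes were called (0.461%) and no member had an unadjusted p under 0.05. In R6/2 mice 28 genes were called (0.496%) and none of the 8 members, of which Aldoc had an unadjusted p under 0.05 (0.042).

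Whether the difference between genotypes itself differed between cortex and striatum was tested by the interaction over all 16 samples. None of the 10 genes passed this edgeR test, by which 3 of 7390 genes were called (0.0406%), and none passed with DESeq2. Gfap alone had an unadjusted p under 0.05, with an interaction of 0.79 on the log2 scale (SE 0.37, 95% interval 0.07 to 1.504, adjusted p = 0.85). For Aldoc the interaction was 0.16 (SE 0.30, interval -0.43 to 0.76) and for Apoe 0.34 (SE 0.26, interval -0.17 to 0.85).

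Between regions, Aqp4 was lower in the striatum in both genotypes. NT cortex held 183, 151, 102 and 133 CPM of Aqp4 and NT striatum 56.5, 60.8, 70.6 and 40.6 CPM, without overlap. The log2 fold change of striatum over cortex was -1.48 in NT mice (SE 0.25, adjusted p = 7.1e-05) and -1.61 in R6/2 mice (SE 0.24, adjusted p = 4.2e-05). It stayed under the threshold in all 27 alternative settings of each comparison, and in the striatal samples of 2 runs alone it was -1.25 and -1.10. In all, 4 members fell and 2 rose from cortex to striatum in NT mice, where the test called 1302 of 7390 genes lower (17.6%) and 1165 higher (15.8%). In R6/2 mice 2 fell and 2 rose, among 1058 genes lower (14.3%) and 956 higher (12.9%). The median log2 fold change of all genes was -0.11 in NT and -0.10 in R6/2 mice, and that of the members -0.38 and -0.23.

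Mt3 and S100b were called higher in the striatum in both genotypes, but their levels differed between samples of 1 run and of 2 runs. Mt3 was at 146 and 125 CPM in the NT samples of 2 runs, NT 1 and NT 2, and at 448 and 1214 CPM in those of 1 run, NT 3 and NT 4, against 149 to 288 CPM in NT cortex. The R6/2 samples of 2 runs were at 123 and 127 CPM and those of 1 run at 448 and 575 CPM. The fit with a term for runs, which reads the striatum at 1 run, gave 1.92 for NT (SE 0.29, adjusted p = 2.0e-05) and 1.40 for R6/2 mice (SE 0.28, adjusted p = 0.00078). In the striatal samples of 2 runs alone the difference was -0.50 (adjusted p = 0.19) and -0.74 (adjusted p = 0.042), the opposite direction. S100b gave 1.47 (SE 0.25, adjusted p = 0.0001) and 1.74 (SE 0.25, adjusted p = 2.0e-05) with that term, and -0.19 (adjusted p = 0.58) and 0.29 (adjusted p = 0.31) in the samples of 2 runs. Transcripts of Mt3 (536 nt) and S100b (1484 nt) are shorter than the mean isoform length of every library, and so is Apoe-001 (1408 nt). That mean length was lower in the striatal samples of 1 run than in those of 2 runs. The mean striatal level in samples of 2 runs over those of 1 run was -2.37 on the log2 scale for Mt3 and -1.58 for S100b, but 0.13 for Apoe. Whether transcript length has a part in this was not tested. A fit with the mean isoform length of each sample as a term, in place of the runs, gave smaller differences. Mt3 was then higher in the striatum by 0.50 in NT mice (adjusted p = 0.022) and by 0.32 in R6/2 mice (adjusted p = 0.13), where the call was lost. S100b was higher by 0.45 in NT mice (adjusted p = 0.061), where its call was lost, and by 0.99 in R6/2 mice (adjusted p = 0.00013).

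**Figure D5:**
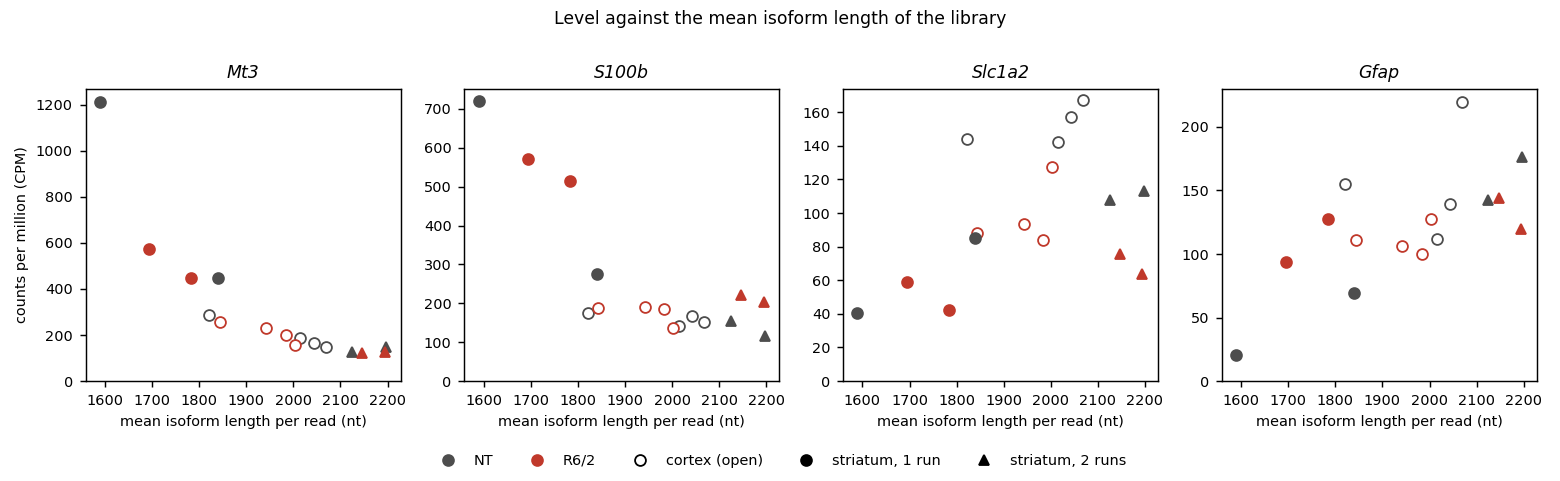
Level (CPM, axes from 0) of Mt3, S100b, Slc1a2 and Gfap against the mean isoform length per read of the library (nt), 1 point per sample. Mt3 and S100b are highest in the striatal samples of 1 run, whose mean lengths were 1589 to 1840.0 nt, and the striatal samples of 2 runs lie close to the cortex for both.

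Slc1a2, Gfap and Glul were also called lower in NT striatum, and of these only Slc1a2 in R6/2 striatum. Slc1a2 was called lower in NT striatum by 1.08 (SE 0.23, adjusted p = 0.00083) and in R6/2 striatum by 1.02 (SE 0.23, adjusted p = 0.0021), and in the samples of 2 runs the differences were -0.43 (adjusted p = 0.14) and -0.46 (adjusted p = 0.14). With mean isoform length as a term both calls of Slc1a2 were kept, at -0.75 in each genotype (adjusted p = 0.0020 and 0.0036), and that of Gfap was lost (-0.58, adjusted p = 0.077). With genomic reads counted, the differences of Slc1a2 were -0.07 and -0.24, with adjusted p values of 0.83 and 0.42, and without the term for runs the call in R6/2 mice was lost (adjusted p = 0.090). Gfap (-1.08, SE 0.32, adjusted p = 0.011) and Glul (-0.79, SE 0.30, adjusted p = 0.045) were called lower in NT striatum alone, whereas the samples of 2 runs gave 0.03 for Gfap (adjusted p = 0.96) and -0.67 for Glul (adjusted p = 0.091). The call of Gfap was lost without the term for runs (adjusted p = 0.34) and without striatum NT 3, striatum NT 4, cortex NT 1, cortex NT 4 or cortex R6/2 2, at adjusted p values between 0.0501 and 0.096. That of Glul was kept without striatum NT 1, striatum NT 3, striatum R6/2 3, cortex NT 3 or cortex R6/2 3 and lost without any of the other 11 samples, at 0.051 to 0.29. The Glul call was kept in only 6 of its 27 alternative settings. Among those that lost it were DESeq2 (adjusted p = 0.082), ISM reads left out (0.16), genomic reads counted (0.18) and the replicate block (0.15). For Apoe, Clu, Slc1a3 and Aldoc no regional difference was called, and their log2 fold changes lay between -0.45 and 0.03. Without striatum NT 3, the adjusted p of Slc1a3 in NT mice was 0.038.

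Other genes of astrocytes were counted from lists chosen with earlier results of these data known. Of 42 further genes of resting astrocytes, 35 were tested in the cortex, of which 8 fell and none rose in R6/2 mice, beside 2.81% lower among all genes tested, with a median log2 fold change of -0.53. Htra1, a secreted protease, fell by 1.36 on the log2 scale (SE 0.21, adjusted p = 0.00062), Mfge8, a secreted bridge for phagocytosis, by 1.17 (SE 0.20, adjusted p = 0.0015) and Ndrg2 by 0.87 (SE 0.18, adjusted p = 0.0091). Between 2 genes (without cortex R6/2 2 or R6/2 3) and 14 genes (without cortex NT 1) fell when single samples were left out. In the striatum 6 of 37 fell and none rose (median -0.48), beside 3.84% lower among all genes, with Htra1 (-1.21, SE 0.17, adjusted p = 0.0015), Mfge8 (-0.77, SE 0.15, adjusted p = 0.011) and the chemokine gene Cxcl14 (-0.99, SE 0.22, adjusted p = 0.024) called. Between 1 gene (without striatum R6/2 4) and 9 genes (without striatum NT 4) fell when single samples were left out, and without the term for runs none of the 37 was called. The summed level of the list was 16193 to 20683 CPM in NT and 13535 to 16137 CPM in R6/2 cortex, and 21386 to 25823 CPM in NT and 16435 to 18681 CPM in R6/2 striatum, so the genotypes did not overlap in either region.

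Few genes of reactive astrocytes had enough reads to be tested. Of 28 listed, 5 were tested in the cortex, where none was called with edgeR. Their median log2 fold change was 0.40, with 1 of the 5 negative. The summed level of the list was 290 to 477 CPM in NT and 341 to 523 CPM in R6/2 cortex. Of 6 tested in the striatum, only Vim, which encodes the filament protein vimentin, was called, and rose by 0.90 (SE 0.19, adjusted p = 0.019). That call was lost without the term for runs and without striatum NT 3, R6/2 1 or R6/2 2. The median log2 fold change of the 6 was 0.36, with 1 of them negative. The summed level of the 28 genes was 243 to 295 CPM in NT and 297 to 384 CPM in R6/2 striatum. Of 20 further genes of glutamate, glutamine and GABA handling, none of 9 tested in the cortex and of 12 tested in the striatum was called, with median log2 fold changes of -0.05 and -0.07. Among 17 further genes of apolipoproteins and cholesterol transport, Apod, which encodes apolipoprotein D, rose in the cortex (0.72, SE 0.19, adjusted p = 0.043) and in the striatum (0.74, SE 0.17, adjusted p = 0.026), and Cyp46a1, a neuronal cholesterol hydroxylase, fell in the striatum (-0.76, SE 0.17, adjusted p = 0.023). Among the alternative settings, the adjusted p of these 3 calls reached 0.16, 0.66 and 0.51.

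Some markers of neurons and oligodendrocytes also fell, beside 2.81% of all genes tested in the cortex and 3.84% in the striatum. Of the neuron markers, 2 of 11 tested fell in R6/2 cortex, Nefl (-0.91, SE 0.19, adjusted p = 0.0082) and Gad1 (-1.04, SE 0.22, adjusted p = 0.011), with a median of -0.51 and a summed level of 8353 to 9730.3 CPM in NT and 6018 to 7190.0 CPM in R6/2 samples. As with the list of resting astrocytes, these cortical sums did not overlap between genotypes. In the striatum 1 of 9 neuron markers fell (Rbfox3, -0.77, SE 0.15, adjusted p = 0.010), with a median of -0.50 and sums of 4211 to 8877 and 4015 to 5885 CPM. Of 10 oligodendrocyte markers, Cldn11 fell in the cortex (-0.90, SE 0.22, adjusted p = 0.026) and Mal, Cldn11 and Mobp in the striatum, by 1.107, 0.81 and 0.77, with medians of -0.42 and -0.23. Of these calls, all but that of Nefl rested on single samples or on the term for runs. Without single samples 1 (without cortex NT 4) to 3 (without cortex NT 3) neuron markers fell in the cortex and 0 (without striatum R6/2 2 or R6/2 4) to 3 (without striatum NT 4) in the striatum. Cldn11 was not called in the cortex without NT 2, NT 4, R6/2 1, R6/2 2 or R6/2 3, and 2 oligodendrocyte markers fell there without NT 1. In the striatum Mal alone of the 3 was called without NT 3, R6/2 1, R6/2 2 or R6/2 3, and 2 of them were called without NT 1 or R6/2 4. Without the term for runs no striatal neuron or oligodendrocyte marker was called lower. None of the microglia, endothelial and mural, and ependymal markers tested was called by genotype in either region, and none of the 4 markers of oligodendrocyte precursors had enough reads to be tested. The part that other cell types have in the differences of the astrocyte genes was not tested.

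Finally, the level of each gene was compared with the mean of the 10 members over the 16 samples, after centring log2 CPM within region and number of runs, which leaves the difference between genotypes in. The 5 genes most like it among 4756 compared were Pacsin1 (r = 0.92), Rph3a (0.92), Gstm1 (0.92), Usp2 (0.92) and Mfge8 (0.92). Pacsin1 and Rph3a are known from neurons, and Gstm1 and Mfge8 from astrocytes. Against the mean of the other 9 members, r was 0.79 for Aldoc, 0.77 for Glul, 0.73 for Slc1a2, 0.72 for Clu, 0.57 for Slc1a3, 0.55 for Apoe, 0.39 for Aqp4 and 0.11 for Gfap, and negative for Mt3 (-0.23) and S100b (-0.59). The points share libraries, and these values are a description without a test.

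The windows before the starts of Apoe and Glul are shown for comparison with those of Aldoc, since these 3 genes fell in R6/2 cortex. They cover 250 bases before and 30 after the RefSeq start, at chr7:19699159-19699438 (minus strand) for Apoe and chr1:153899679-153899958 (plus strand) for Glul in GRCm38.p6, with capitals for the same 3 elements.

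Apoe: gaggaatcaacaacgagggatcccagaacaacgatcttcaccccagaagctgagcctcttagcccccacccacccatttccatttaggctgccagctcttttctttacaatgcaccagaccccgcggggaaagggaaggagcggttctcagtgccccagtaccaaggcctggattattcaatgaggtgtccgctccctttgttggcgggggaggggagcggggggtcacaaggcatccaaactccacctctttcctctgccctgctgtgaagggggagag
Glul: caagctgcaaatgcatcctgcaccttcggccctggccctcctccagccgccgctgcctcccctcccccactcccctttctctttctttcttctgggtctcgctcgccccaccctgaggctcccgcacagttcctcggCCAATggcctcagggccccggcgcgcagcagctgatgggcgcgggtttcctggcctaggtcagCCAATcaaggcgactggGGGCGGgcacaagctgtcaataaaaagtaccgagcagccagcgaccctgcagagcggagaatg

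The Apoe window holds none of the 3 elements, and the Glul window 2 CCAAT elements, which begin 113 and 50 bases before the start, and 1 GGGCGG element, 33 bases before it. The GC content was 57.5% for Apoe and 65.0% for Glul, 50.3% and 53.9% for the windows of Aldoc-001 and Aldoc-002, and 52.5% at the median of all promoter windows of 280 bases.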

How the data were processed

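Full-length cDNA was made from polyadenylated RNA of mouse cortex and striatum, amplified by PCR and sequenced on the PacBio platform. Per the study's methods, the authors refined the reads with isoseq3, mapped them with minimap2 (2.17-r941) to mm10, corrected them with TranscriptClean and annotated them with TALON against Ensembl. The deposited values are unfiltered read counts per isoform and sample, with a class for each isoform: known, incomplete splice match (ISM), unannotated combination of known junctions (NIC), unannotated junction (NNC) or genomic. PCR duplicates were not removed by molecular identifiers, so intervals cover counting error only.

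Counts were summed over isoforms per gene without the genomic class, and over both runs of 4 striatal samples. Groups came from the region and genotype labels. Genes were filtered (filterByExpr), scaled by TMM and tested in edgeR 4.0.16 (R 4.3.3) by quasi-likelihood, and striatal and 16-sample fits had a term for 1 or 2 runs, with the region contrast read at 1 run. Isoform usage was tested with diffSpliceDGE and Simes adjustment on isoforms with at least 10 reads. Shares have 95% Wilson intervals (scipy 1.17.1), and a count of 0 allows 3 counts. Alternatives were DESeq2 1.42.0, other scaling, filters, classes, runs and blocks, and leaving out each sample. The fits were tested on simulated data that held no effect of the number of runs, so calls that depend on the term for runs were not covered. Isoforms with at least 10% of complete reads in a group or called for usage were named, and up to 3 called genes of each list and direction by smallest adjusted p. The 10 members, the lists and the term for runs were chosen with earlier results of these data known.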

Additional observations from a re-analysis of the deposited data

Results flagged for a closer look

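In 100 groups of 4 samples tested for a single sample far from the others, 10 were found. Chance gives about 1 in 20 for values on a continuous scale, but not for shares from few reads. In such shares, 1 read is always flagged when the other samples have equal shares. The shares of both Glul isoforms in striatum NT 4 also come from the same few reads. The count of 10 was therefore not compared with chance. Among levels, Clu was at 524 CPM in cortex NT 3, with the other NT samples at 889.8 to 959 CPM, and Slc1a3 was at 412 CPM in cortex NT 4, with the others at 243 to 269 CPM. Glul was at 61.6 CPM in striatum R6/2 2 against 46.7 to 47.7 CPM, and S100b at 137 CPM in cortex R6/2 4 against 186 to 191 CPM.

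Among shares of complete reads, Apoe-001 held 98.0% in cortex NT 3 against 97.5% to 97.6% in the other NT samples. Glul-001 held 60.0% in striatum NT 4, which is 3 of 5 reads, against 91.1% to 95%. The NNC isoform of Glul held 40.0% there, which is 2 of 5 reads, and 1.89% in cortex NT 4 and 2.86% in cortex R6/2 3, where the other samples of the group held none. S100b-001 held 98.4% in cortex NT 1 and 100% in the other 3 samples.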

How the results depend on the processing

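Aldoc stayed past the threshold in R6/2 cortex in all 16 alternatives and Aqp4 between regions in all 27 alternatives of each genotype. Of 10 members, 3 were called in R6/2 cortex and between 1 (without cortex R6/2 3) and 4 when single samples were left out. In R6/2 striatum 1 was called, 2 with DESeq2, 2 without the filter, 2 with genomic reads added, 0 without the term for runs, 4 with mean isoform length as a term and 1 to 4 without single samples (4 without striatum NT 4). Between regions, 6 were called in NT and 4 in R6/2 mice, 2 and 1 without the term for runs, and 1 and 2 with striatal samples of 2 runs only. For isoform usage, 1 was called in R6/2 striatum, 0 with ISM isoforms added, 0 with the first run only, 0 without the term for runs and 0 to 1 without single samples. No member was called for the interaction or for the other usage comparisons in any alternative. The causes were not tested. Mean isoform length as a term and the restriction to 2 runs were chosen after seeing the data. Same-numbered samples were not taken as pairs, since the labels do not say whether those of cortex and striatum come from 1 mouse. Over 4757 genes, the correlations of their deviations between regions ran from -0.114 to 0.402. R6/2 2, 3 and 4 (0.353, 0.402 and 0.199) and NT 2 and 3 (0.212 and 0.158) correlated best with their own number. NT 1, NT 4 and R6/2 1 did not. A shared mouse is therefore not excluded, and the regional and interaction fits leave such pairing out. Between genotypes, which cannot share a mouse, the correlations ran from -0.399 to 0.222. The replicate block called 3, 1, 0, 5 and 4 members in R6/2 cortex, R6/2 striatum, the interaction and the regions of NT and R6/2 mice. Directions that turned belonged to values that were not called, apart from Mt3, S100b and Gfap between regions, and are given in log2. With mean isoform length as a term, this gave Mt3 -0.0069 for R6/2 against NT cortex, and Aldoc 0.0101 and Clu 0.0904 for striatum against cortex in NT mice, and Aldoc 0.11, Gfap 0.0845 and Slc1a3 0.0333 for striatum against cortex in R6/2 mice. With striatal samples of 2 runs only, this gave Aldoc -0.24, Aqp4 0.15 and Slc1a2 -0.0217 for the interaction, and Aldoc 0.43, Clu 0.28, Gfap 0.0283, Mt3 -0.50, S100b -0.19 and Slc1a3 0.13 for striatum against cortex in NT mice, and Aldoc 0.19, Clu 0.16, Gfap 0.28, Mt3 -0.74 and Slc1a3 0.44 for striatum against cortex in R6/2 mice. With genomic reads added, this gave Slc1a2 -0.17 for the interaction. With the first run only, this gave Slc1a2 -0.0694 for the interaction, and Clu 0.0742 for striatum against cortex in NT mice, and Aldoc 0.0771 for striatum against cortex in R6/2 mice. Without the term for runs, this gave Aldoc 0.0168 and Clu 0.0798 for striatum against cortex in NT mice, and Aldoc 0.12, Gfap 0.14 and Slc1a3 0.0995 for striatum against cortex in R6/2 mice, and Slc1a3-001 0.013 for R6/2 against NT striatum (usage), and Gfap-001 0.0075 for striatum against cortex in NT mice (usage), and Slc1a3-001 0.00539 for striatum against cortex in R6/2 mice (usage). Without the filter on low counts, this gave Clu 0.087 for striatum against cortex in NT mice, and Aldoc 0.0675 for striatum against cortex in R6/2 mice. With the replicate block, this gave Clu 0.0927 for striatum against cortex in NT mice. With samples of 1 run only, this gave Aldoc 0.0717 and Gfap 0.0271 for striatum against cortex in R6/2 mice. With ISM isoforms added, this gave Clu-001 0.0251 and Slc1a3-001 0.00191 for R6/2 against NT cortex (usage). With known isoforms only, this gave Gfap-001 0.0307 for striatum against cortex in NT mice (usage). Leaving out single samples gave Aqp4 -0.18 to 0.0448 and Mt3 -0.0109 to 0.37 for R6/2 against NT cortex. It gave Aqp4 -0.33 to 0.0285 for R6/2 against NT striatum. It gave Aqp4 -0.26 to 0.11, Clu -0.18 to 0.0532, Slc1a2 -0.0445 to 0.20 and Slc1a3 -0.00245 to 0.43 for the interaction. It gave Aldoc -0.43 to 0.0549, Apoe -0.45 to 0.0375 and Clu -0.27 to 0.19 for striatum against cortex in NT mice. It gave Aldoc -0.31 to 0.0963, Apoe -0.17 to 0.24 and Clu -0.26 to 0.00384 for striatum against cortex in R6/2 mice. It gave Apoe-001 -0.00302 to 0.00207, Slc1a2-001 -0.0155 to 0.13, Slc1a2-004 -0.59 to 0.00193 and Slc1a3-001 -0.0203 to 0.0268 for R6/2 against NT striatum (usage). It gave Aqp4-201 -0.0189 to 0.0646, the NNC isoform of Aqp4 -0.40 to 0.11 and Gfap-001 -0.046 to 0.000775 for striatum against cortex in NT mice (usage). Depth limited Glul, Gfap, Slc1a2 and Aqp4 most, with 4 to 8 reads each in striatum NT 4.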
